A study of Mus musculus with 11 samples.

Results

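The Fas death receptor pathway was followed here through 5 genes chosen by symbol, the receptor Fas, its ligand Fasl, the adaptor Fadd, the initiator caspase Casp8 and the inhibitor Cflar, of 25677 genes listed. All 5 were listed and passed the filter on low counts in each comparison. RNA was sequenced from kidney tissue of female mice aged 21 weeks, and each library came from a single mouse. The control group (Ctr) held 3 C57BL/6J mice. The model group (Lpr) held 4 MRL/lpr mice not given DNase I, which are homozygous for the lpr mutation of Fas on the MRL background and develop a lupus-like nephritis. The treated group (DNase) held 4 MRL/lpr mice that also carry this mutation and received DNase I, an enzyme that digests DNA outside cells, by daily intraperitoneal injection from week 17, and whether the other groups received a vehicle is not given in the sources used here. All 8 MRL/lpr mice therefore carried the mutant Fas, no MRL mouse with an intact Fas gene was included, and strain, Fas mutation and nephritis cannot be told apart in a comparison with Ctr. The mutation is carried in every cell, so that no cell type of the MRL/lpr kidneys keeps an intact copy.

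Fas is a cell surface receptor of the tumor necrosis factor receptor family. When bound by Fas ligand, which activated T cells and NK cells display, it recruits the adaptor FADD, which in turn recruits procaspase-8, and the active caspase then starts the proteolysis of cell death. Cflar encodes c-FLIP, a relative of caspase-8 without protease activity that competes for the same complex. The lpr allele is known as an insertion of an early transposable element into the second intron of Fas, which ends or misroutes most transcripts early, and mice without working Fas gather T cells that would otherwise be removed.

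Positions are given on mouse build mm10 (GRCm38), from RefSeq GRCm38.p6 and, for exons, GENCODE. Fas lies at chr19:34290647-34327775. Its reference transcript Fas-201 has 9 exons, and the intron that receives the lpr insertion spans chr19:34307279-34315178, 7900 bases between exon 2 and exon 3. The junction that normal splicing makes across this intron is shown because it is the place where lpr transcripts depart from normal ones, with the last 30 bases of exon 2 in lower case and the first 30 bases of exon 3 in capitals.

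Fas exon 2 to 3 junction: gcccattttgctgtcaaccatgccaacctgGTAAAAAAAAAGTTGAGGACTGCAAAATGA

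Exons 1 and 2 hold 15.7% of the bases of this transcript and the exons after the junction hold 84.3%. The transcript has 1481 bases, whereas the deposited FPKM use a Fas gene model of 2450 bases. These shares therefore need not hold for the counted bases. The deposited counts give 1 total per gene, so reads before and after this junction cannot be separated and the Fas value does not check the genotype label.

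Fasl lies at chr1:161780691-161788495 on the minus strand, and it is the gene of the 5 whose level separated the MRL/lpr kidneys from Ctr. Its upstream window in RefSeq, 250 bases at chr1:161788496-161788745, is shown 5′ to 3′ with matches to the core letters bound by NFAT (GGAAA, either strand), a factor of T cell activation, in capitals.

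Fasl upstream window: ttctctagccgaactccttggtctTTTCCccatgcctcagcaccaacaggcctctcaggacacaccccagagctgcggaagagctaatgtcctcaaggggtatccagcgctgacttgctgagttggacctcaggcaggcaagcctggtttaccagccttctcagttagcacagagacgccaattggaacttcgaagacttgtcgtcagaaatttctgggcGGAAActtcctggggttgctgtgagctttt

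The 2 matches begin at -226 and -30, counted from the first transcribed base as 0. Such short letters are common, and 61.3% of 32851 promoter windows of 300 bases in RefSeq held at least 1 match on either strand. All 5 genes had a window in this table. That of Casp8, chr1:58802252-58802551, lies inside the gene span given below, so the first bases of that span were not searched. The letters of the interferon-stimulated element (GAAA, any 2 bases, then GAAA), found in 3.44% of windows, matched once in Cflar and in none of the other members. The letters of the interferon-gamma-activated site (TTCNNNGAA), found in 8.30% of windows, matched once in Fas and in none of the other members. The NF-kB letters (GGG, any 5 bases, then CC) occurred in 50.8% of windows and in those of Fas, Fasl, Fadd and Cflar. In Fas, 1 NFAT match lies inside an NF-kB match, and in Fas and Fadd 1 NF-kB place was read on both strands. A match describes letters in this window only.

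Cflar and Casp8 are neighbours on chromosome 1, Cflar at chr1:58711311-58758884 and Casp8 at chr1:58795233-58847503, with 36348 bases and 1 listed gene, a long noncoding RNA, between them. Fadd lies at chr7:144578323-144582441. Among the members, Fadd alone shared exon bases with another annotated gene, an antisense RNA over 6.12% of its exon bases, and its counts are uncertain to that extent because the strand setting of the counting was not stated.

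The libraries held 33469858 to 38460873 counts. Lpr replicate 3 stood apart, with counts that fell by 0.436 log2 units per doubling of gene length against the mean of all libraries, whereas the slopes of the other 10 libraries lay between -0.0441 and 0.0846. Kidney identity was present in every group, with summed proximal tubule markers of at least 4554 CPM, which are counts scaled to a common library size. CPM were scaled by TMM, and FPKM, which divide by gene length, were used where levels of different genes are compared. In these bulk samples more cells of a type and more RNA per cell cannot be told apart.

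By FPKM, the inhibitor, the caspase and the adaptor lay above the receptor, and the ligand was lowest. In Ctr the level was 9.26 ± 0.923 (SD, n = 3) for Cflar, 7.74 ± 1.19 for Casp8, 7.72 ± 0.128 for Fadd, 2.81 ± 0.449 for Fas and 0.0277 ± 0.0356 for Fasl. In Lpr it was 11.1 ± 2.98 (SD, n = 4) for Cflar, 10.9 ± 1.76 for Casp8, 6.93 ± 1.68 for Fadd, 2.83 ± 0.413 for Fas and 1.14 ± 1.19 for Fasl. In DNase it was 11.7 ± 1.24 (SD, n = 4) for Cflar, 10.7 ± 1.30 for Casp8, 7.67 ± 0.263 for Fadd, 2.66 ± 0.235 for Fas and 0.623 ± 0.0923 for Fasl. The order of the means was the same in the 3 groups. Cflar and Casp8 were within their spread of each other in every group, Casp8 and Fadd in Ctr, and the gap from Fadd to Fas exceeded the spread in every group. Fas and Fasl were apart in Ctr and DNase, whereas in Lpr replicate 2 the ligand, at 2.89 FPKM, was above the receptor, at 2.56 FPKM.

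Fasl, the ligand, was nearly undetected in control kidneys and present in every MRL/lpr kidney. The Ctr kidneys held 5, 0 and 1 counts. The Lpr kidneys held 24, 208, 34 and 54 counts, or 0.678, 5.42, 1.00 and 1.53 CPM. The DNase kidneys held 35, 39, 52 and 52 counts, or 0.976, 1.06, 1.31 and 1.34 CPM. Neither MRL/lpr group overlapped Ctr, as for 14.2% of genes that were higher in all Lpr kidneys and 18.2% in all DNase kidneys, and Lpr replicate 2 stood well above the other 7 MRL/lpr kidneys. These are low levels, and a library with 0 counts allows up to 3 by counting error alone.

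Between Lpr and Ctr, Fasl rose by 5.16 on the log2 scale (standard error, SE, 1.13, adjusted p = 0.0201, edgeR), an estimate of 35.8-fold with a 95% interval of 2.59 to 7.73 on the log2 scale. It was the only member called, 1 of 5, beside 7.27% of 16074 genes called higher and 10.2% called in either direction. It also passed the further threshold of the study, an absolute log2 fold change above 2, which 5.78% of genes passed, 4.65% of all genes by a rise. Without Lpr replicate 2 the log2 fold change was 4.13 (adjusted p = 0.0238) and the Lpr mean fell from 2.16 to 1.07 CPM. The call was lost when Ctr replicate 2 (4.64, adjusted p = 0.0745) or Ctr replicate 3 (4.87, adjusted p = 0.0906) was left out. Leaving out Ctr replicate 1, the control with 5 counts, gave 6.85 (adjusted p = 0.0444). It was also lost with limma on log2(FPKM + 1), where the log2 fold change was 0.92 (adjusted p = 0.152), and the reason was not tested.

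Between DNase and Ctr, Fasl rose by 4.26 on the log2 scale (SE 0.63, adjusted p = 0.00112, edgeR). It was again the only member called, 1 of 5, beside 13.1% of 16100 genes called higher and 21.7% in either direction, and it also passed the fold threshold, as did 4.56% of genes by a rise. The call held with each library left out in turn, with log2 fold changes of 3.74 to 5.95. Both comparisons use the same 3 Ctr kidneys and are not independent of each other.

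Fasl was not called between DNase and Lpr. Its log2 fold change was -0.88 (SE 0.59, adjusted p = 0.854, edgeR), with a 95% interval of -2.21 to 0.44 on the log2 scale. Without Lpr replicate 2 the difference was 0.11, in the other direction. Of 15832 genes tested, 0% were called at this threshold, 5.6% had an unadjusted p under 0.05, and DESeq2 called 17 genes, none of them a member. All 5 members overlapped between DNase and Lpr, and 3.76% of genes did not.

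**Figure D1:**
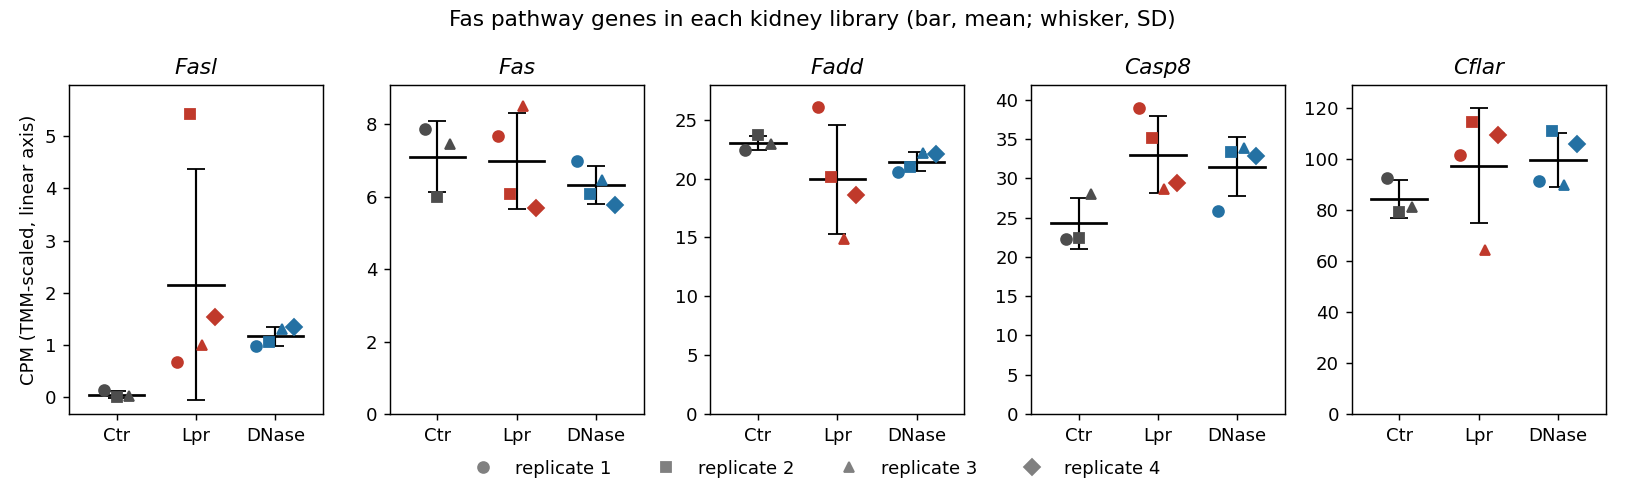
CPM of the 5 members in each library (points, shaped by replicate), with the mean (bar) and SD (whisker) of Ctr (n = 3), Lpr (n = 4) and DNase (n = 4) on a linear axis for each gene. Fasl lies at 0.135 CPM or below in Ctr and at 0.678 CPM or above in all 8 MRL/lpr kidneys, while Fas, Fadd and Cflar overlap between Lpr and Ctr.

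Markers of T cells and cytotoxic granules moved with Fasl. All 11 T cell markers rose in Lpr against Ctr and in DNase against Ctr, and their summed level was 6.38 to 10.3 CPM in Ctr, 92.7 to 207 CPM in Lpr and 95.5 to 154 CPM in DNase. All 6 cytotoxic granule genes rose in both comparisons as well, with a summed level of 1.5 to 3.02 CPM in Ctr, 27.0 to 75.0 CPM in Lpr and 18.8 to 29.5 CPM in DNase. Of 4 NK cell markers, 2 were tested between Lpr and Ctr. Eomes rose (log2 fold change 4.26) and Klrb1c did not (-0.13), while Ncr1 and Klre1 did not pass the filter. Between DNase and Ctr 3 were tested and 1 rose. Ncr1, Klrb1c and Klre1 had group means of at most 0.380 CPM. Macrophage markers rose too, 5 of 6 in Lpr and 6 of 6 in DNase, and so did 3 of the 4 neutrophil markers tested in each. Of the B cell markers, 2 of 5 tested rose in Lpr and 5 of 6 in DNase. Ly6g, a neutrophil surface marker, had no count in Ctr. No defining T cell, cytotoxic or NK marker was at 0 in every library of a group.

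The 3 genes whose centred log2 CPM lay closest to those of Fasl over the 11 libraries, of 14626 genes compared, were Ms4a4b, a lymphocyte surface protein (root mean square difference 0.366), Cd27, a co-stimulatory receptor of lymphocytes (0.367), and Btnl2, a butyrophilin family member (0.373). Without Lpr replicate 3 the closest were Ccl5, Cd27 and Ms4a4b. This likeness is a description over groups that differ throughout.

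Fasl was then set against the mean log2 CPM of 21 T cell, NK cell and cytotoxic granule markers in the same library. The difference, Fasl minus markers, was -2.21 ± 0.474 in Ctr (SD, n = 3), -1.46 ± 0.748 in Lpr and -1.69 ± 0.119 in DNase (n = 4 each). Relative to these markers, Fasl was thus not shown to differ. The shift from Ctr was 0.75 in Lpr (two-sided exact permutation p = 0.2, adjusted p = 0.6 over 6 tests) and 0.52 in DNase (two-sided exact permutation p = 0.114, adjusted p = 0.6). From Lpr to DNase it was -0.23 (two-sided exact permutation p = 0.657, adjusted p = 0.657). With 3 against 4 libraries the smallest p possible is 0.029, and after adjustment over 6 tests a lone test at that value would not fall under 0.05. With 0 to 5 counts in Ctr these shifts moved with the prior count, to 1.63 in Lpr and 1.40 in DNase at a prior count of 0.5 (adjusted p = 0.343 and adjusted p = 0.171, two-sided exact permutation tests). At that prior count the DNase p before adjustment was the smallest this test can give. Against the T cell markers alone, at a prior count of 2, the shifts were 0.38 in Lpr and 0.011 in DNase. Without Lpr replicate 2 the shift from Ctr against all 21 markers was 0.45 in Lpr. In Lpr replicate 2, which had the most Fasl, the 21 markers also summed highest, to 293 CPM against 125 to 149 CPM in the other Lpr kidneys. Fasl minus markers was -0.57 in that library, against -2.30, -1.79 and -1.19 in Lpr replicates 1, 3 and 4. The share of the Fasl rise that goes with lymphocyte content was not tested beyond this.

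**Figure D2:**
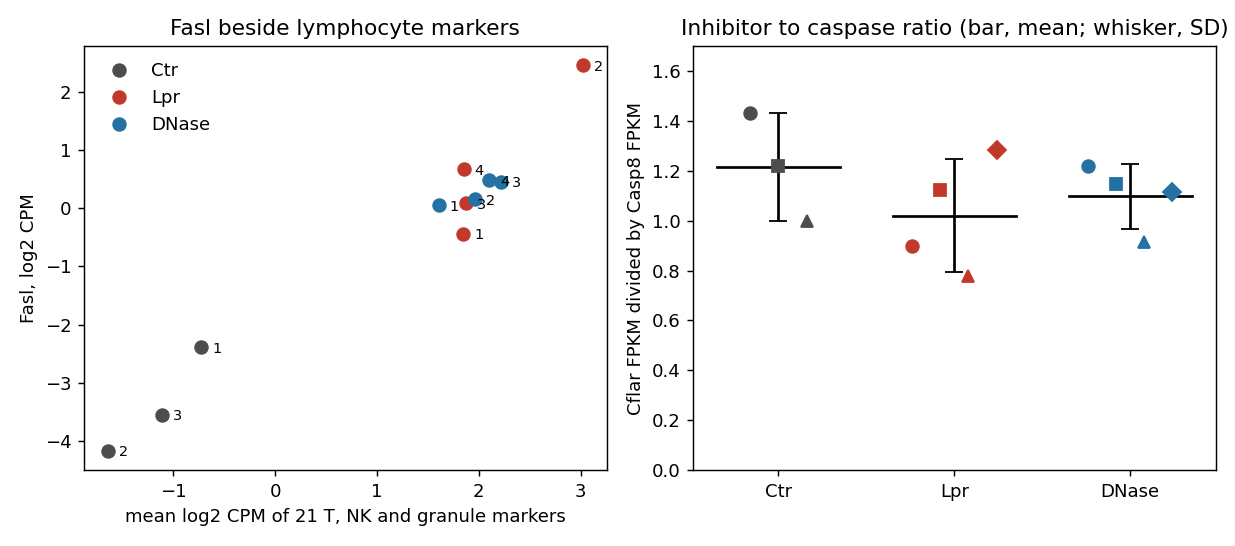
Left, Fasl against the mean of 21 T cell, NK cell and cytotoxic granule markers in each library, both in log2 CPM, numbered by replicate and coloured by group. Right, Cflar FPKM divided by Casp8 FPKM in each library, with the mean (bar) and SD (whisker). Fasl and the markers are both low in the 3 Ctr kidneys and highest in Lpr replicate 2, and the ratios of the 3 groups overlap.

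Fas, the receptor, was not called in any comparison. It lay at 7.87, 5.99 and 7.46 CPM in Ctr, at 7.69, 6.07, 8.51 and 5.69 CPM in Lpr and at 6.97, 6.07, 6.46 and 5.77 CPM in DNase. The groups overlapped throughout, and the highest of all was Lpr replicate 3. The log2 fold change was -0.013 between Lpr and Ctr (95% interval -0.54 to 0.52, adjusted p = 0.982, edgeR) and -0.17 between DNase and Ctr (95% interval -0.51 to 0.17, adjusted p = 0.472, edgeR). Set against Lpr, DNase differed by -0.15 (95% interval -0.58 to 0.28, adjusted p = 0.876, edgeR). Without Lpr replicate 3 the log2 fold change was -0.13 for Lpr over Ctr and -0.043 for DNase over Lpr. The intervals concern the total of reads on the gene and say nothing of whether the transcripts cross the junction printed above. The genes most like Fas over the 11 libraries were Cbx6 (root mean square difference 0.1), Tspan3 (0.110) and Cnn3 (0.122). Without Lpr replicate 3, Cbx6 was still among the nearest 3, with Rcn2 and Olfm1.

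The other receptors that carry a death domain were also not called against Ctr. Tnfrsf1a, the main receptor of tumor necrosis factor, had 105 CPM in Lpr, 84.0 CPM in DNase and 79.7 CPM in Ctr (log2 fold change of Lpr over Ctr 0.41, adjusted p = 0.209, edgeR). Tnfrsf10b, the mouse receptor of TRAIL, had 2.61, 2.29 and 2.50 CPM in Lpr, DNase and Ctr. Tnfrsf25, a receptor of T cells, had 1.03, 0.846 and 0.753 CPM, and Tnfrsf21, also called DR6, had 223, 231 and 287 CPM.

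Fadd, the adaptor, was not called either. It lay at 22.4, 23.7 and 22.9 CPM in Ctr, at 26.1, 20.2, 14.9 and 18.6 CPM in Lpr and at 20.5, 21.0, 22.1 and 22.1 CPM in DNase. The Lpr kidneys spread to both sides of Ctr and Lpr replicate 3 was lowest, while all 4 DNase kidneys lay just below all 3 Ctr kidneys, as did 13.7% of genes. The log2 fold change was -0.20 between Lpr and Ctr (95% interval -0.66 to 0.26, adjusted p = 0.639, edgeR), -0.085 without Lpr replicate 3, and -0.10 between DNase and Ctr (95% interval -0.28 to 0.077, adjusted p = 0.419, edgeR). The value of DNase over Lpr was 0.10 (adjusted p = 0.902, edgeR) and -0.019 without Lpr replicate 3. The genes most like it were Pias4 (0.0638), Ttll12 (0.0703) and Ip6k1 (0.0705), and without Lpr replicate 3 they were Smpd1, Adck2 and Tspan3, with none in common.

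Casp8, the initiator caspase, had higher values in the MRL/lpr kidneys without passing the threshold. It lay at 22.3, 22.4 and 28.0 CPM in Ctr, at 39.0, 35.2, 28.6 and 29.4 CPM in Lpr and at 25.9, 33.4, 33.8 and 32.8 CPM in DNase. All Lpr kidneys lay above all Ctr kidneys, as did 14.2% of genes, though the lowest Lpr kidney and the highest Ctr kidney were close. DNase replicate 1 fell within the Ctr range and the other 3 DNase kidneys lay above it.

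The log2 fold change of Casp8 was 0.46 between Lpr and Ctr (SE 0.18, adjusted p = 0.185, edgeR) and 0.38 between DNase and Ctr (SE 0.13, adjusted p = 0.0697, edgeR). Between Lpr and Ctr it was called without Lpr replicate 3 (0.51, adjusted p = 0.0475) and with voom sample weights (0.49, adjusted p = 0.0386). Between DNase and Ctr it was called without DNase replicate 1 (0.46, adjusted p = 0.0185), without Ctr replicate 3 (0.49, adjusted p = 0.0315), with voom sample weights (0.40, adjusted p = 0.0350) and with limma on FPKM. Between DNase and Lpr the log2 fold change was -0.073 (95% interval -0.41 to 0.27, adjusted p = 0.918, edgeR). The genes most like Casp8 were Snhg17 (0.118), Nck2 (0.121) and Fam13b (0.127), and without Lpr replicate 3 they were Akr1b10, Fam13b and Snhg17.

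Cflar, the inhibitor, was the most counted of the 5 genes. It lay at 92.7, 79.2 and 81.1 CPM in Ctr, at 101, 115, 64.4 and 109 CPM in Lpr and at 91.5, 111, 89.7 and 106 CPM in DNase. Lpr replicate 3 was the lowest of all libraries and the other 3 Lpr kidneys lay above Ctr. Cflar has a long gene model of 8793 bases in the deposited FPKM, and Lpr replicate 3 is the library whose counts fell with gene length. With a gene-length offset in the fit, the log2 fold change of Cflar between Lpr and Ctr was 0.29 and was not called (adjusted p = 0.123, edgeR).

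The log2 fold change of Cflar was 0.22 between Lpr and Ctr (SE 0.21, adjusted p = 0.620, edgeR), and without Lpr replicate 3 it was 0.37 and called (adjusted p = 0.0333). Between DNase and Ctr it was 0.24 (SE 0.10, adjusted p = 0.136, edgeR). Between DNase and Lpr it was 0.029 (95% interval -0.38 to 0.44, adjusted p = 0.972, edgeR) and -0.13 without Lpr replicate 3. The genes most like Cflar were Acap2 (0.0758), Ascc3 (0.0787) and Trip12 (0.0832), and without Lpr replicate 3 they were Rnf121, Adam10 and Tmem237, with none in common.

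**Figure D3:**
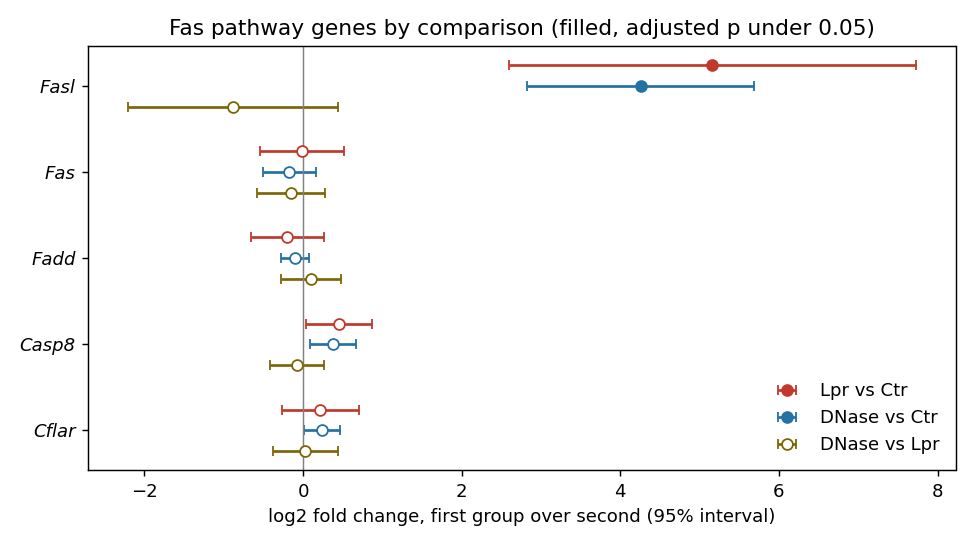
Log2 fold change of each member in the 3 comparisons from edgeR, first group over second, with 95% intervals; filled points have an adjusted p under 0.05. Only Fasl in the comparisons with Ctr is filled, at 5.16 and 4.26.

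The balance of inhibitor to caspase was measured as Cflar FPKM over Casp8 FPKM in each library. It was 1.43, 1.22 and 0.997 in Ctr, 0.896, 1.12, 0.776 and 1.28 in Lpr and 1.22, 1.15, 0.912 and 1.11 in DNase. The 3 groups overlapped, with means of 1.21 ± 0.217 (SD, n = 3), 1.02 ± 0.226 (SD, n = 4) and 1.10 ± 0.131 (SD, n = 4). The log2 ratio differed by -0.26 between Lpr and Ctr (two-sided exact permutation p = 0.314, adjusted p = 0.629), by -0.14 between DNase and Ctr (two-sided exact permutation p = 0.429, adjusted p = 0.643) and by 0.13 between DNase and Lpr (two-sided exact permutation p = 0.543, adjusted p = 0.651). For 4 against 4 libraries the smallest p possible was 0.029. Without Lpr replicate 3 the difference was -0.14 between Lpr and Ctr and 0.0039 between DNase and Lpr. After the gene-length correction it was -0.032 between Lpr and Ctr, -0.075 between DNase and Ctr and -0.043 between DNase and Lpr. Without Ctr replicate 1 it was -0.013 between DNase and Ctr. After adjustment over 6 tests, a lone test at the smallest possible p would not fall under 0.05. With these numbers of mice no shift of the ratio was called, and the tests could hardly have called one.

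The pathway around the 5 members was then followed through 35 further genes in 8 roles. In Lpr against Ctr, 6 of 35 rose and 0 fell, beside 7.27% and 2.92% of all genes, and the median log2 fold change of the list was 0.41 against 0.027 over all genes tested. In DNase against Ctr, 11 of 35 rose and 2 fell, beside 13.1% and 8.61% of all genes, with a median of 0.14 against 0.002. In DNase against Lpr, 0 of the 34 that could be tested were called, and the median was -0.19 against -0.020. A positive value was found for 7 of 34, beside 7455 of 15832 over all genes tested, and this difference was not tested. The count for Lpr against Ctr was sensitive to single libraries. There was 1 call when Ctr replicate 2 was left out and 2 when Ctr replicate 1 or Ctr replicate 3 was. There were 3 when Lpr replicate 2 was left out, and 9 when Lpr replicate 3 was. Calls over all genes moved in the same fits, from 1639 of 16074 with all libraries. They were 852 of 16376, 911 of 16458 and 915 of 16409 without Ctr replicates 1, 2 and 3. Without Lpr replicate 2 they were 1184 of 15835, and without Lpr replicate 3 they were 2824 of 15855.

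Among the other death ligands, Tnf and Lta rose in both groups. Tnf, the ligand of Tnfrsf1a, had 0.178 CPM in Ctr, 0.772 CPM in Lpr and 0.882 CPM in DNase, with log2 fold changes over Ctr of 2.12 (adjusted p = 0.0425, edgeR) and 2.30 (adjusted p = 0.0199). Lta, lymphotoxin alpha of activated lymphocytes, had 0.0566, 0.350 and 0.661 CPM, with log2 fold changes of 2.53 (adjusted p = 0.0302) and 3.43 (adjusted p = 0.00314). Both are low. For both, all Lpr kidneys lay above all Ctr kidneys, as for 14.2% of genes, and so did all DNase kidneys, as for 18.2%. The Lpr calls of these low genes depended on which libraries were kept. That of Tnf was lost without any 1 of the Ctr kidneys and without Lpr replicate 1 or 2 (adjusted p of 0.0723 to 0.173), and that of Lta without Ctr replicate 2 or 3 and without Lpr replicate 4 (0.0617 to 0.141), while without Lpr replicate 2 or 3 Lta did not pass the filter on low counts. In DNase, Tnf lost its call without Ctr replicate 1 or 3 (adjusted p = 0.0757 and 0.0606) and Lta kept it with each library left out. Tnfsf15, the ligand of Tnfrsf25, was not called in either group, and in DNase it was called without Ctr replicate 3 (adjusted p = 0.0237).

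Tnfsf10, which encodes TRAIL, rose in DNase (log2 fold change 0.62, adjusted p = 0.00389, edgeR), and in Lpr its value was 0.90 with an adjusted p of 0.368. Without Lpr replicate 3 it was called in Lpr as well (log2 fold change 1.22, adjusted p = 0.00307), as it was with voom sample weights (1.07, adjusted p = 0.00961). Mmp7, a metalloprotease known to cleave Fas ligand from the cell surface, rose in DNase from 0.0739 to 0.501 CPM (log2 fold change 2.64, adjusted p = 0.0298, edgeR). The DNase call was lost without Ctr replicate 2 or 3 or DNase replicate 2 (adjusted p of 0.0551 to 0.0937). In Lpr Mmp7 had 1.57 CPM (log2 fold change 4.31, adjusted p = 0.0681) and was called without Lpr replicate 1 (4.68, adjusted p = 0.0427), and an antisense gene covers 11.5% of its exon bases. Adam10, another sheddase of Fas ligand, was not called in either group.

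The kinase and the executor of necroptosis, the lytic death that can follow when caspase-8 is inactive, rose in both groups. Mlkl, the membrane-rupturing executor, had 2.02 CPM in Ctr, 10.1 CPM in Lpr and 5.65 CPM in DNase, with log2 fold changes of 2.33 (SE 0.39, adjusted p = 0.00617, edgeR) and 1.49 (SE 0.22, adjusted p = 0.00117). Ripk3, the kinase that phosphorylates MLKL, had 1.30, 3.98 and 2.93 CPM, with log2 fold changes of 1.62 (adjusted p = 0.0443) and 1.17 (adjusted p = 0.0266). The call of Ripk3 was lost in Lpr without Ctr replicate 1 or 2 or Lpr replicate 1 or 2 (adjusted p of 0.0852 to 0.176), and in DNase without Ctr replicate 1 or 2 or DNase replicate 2, 3 or 4 (0.0528 to 0.0922). The other 5 adaptors and kinases, Tradd, Traf2, Ripk1, Faf1 and Daxx, were not called in either comparison with Ctr. Mlkl was the only one of the 35 genes called between Lpr and Ctr with each library left out in turn. Between DNase and Ctr 8 of the 13 called were. The share of all genes that stayed called in this way was not computed. These counts therefore do not set Mlkl or the pathway apart from other genes.

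Of 8 inhibitors, Pea15a rose in both groups. It encodes a death effector domain protein that binds FADD and caspase-8, and it went from 105 CPM in Ctr to 237 CPM in Lpr (log2 fold change 1.19, adjusted p = 0.0160, edgeR) and 183 CPM in DNase (0.81, adjusted p = 7.56e-05). Its Lpr call was lost without any 1 of the Ctr kidneys (adjusted p of 0.0632 to 0.0846). Tnfaip3, a ubiquitin-editing enzyme that restrains NF-kB, rose in DNase (log2 fold change 1.22, adjusted p = 6.85e-05), and so did Birc3, an inhibitor of apoptosis protein (0.70, adjusted p = 0.00344). In Lpr these had log2 fold changes of 2.06 (adjusted p = 0.0845) and 0.98 (adjusted p = 0.105). Tnfaip3 was called in Lpr without Lpr replicate 2 (1.07, adjusted p = 0.0226), the library in which it was highest, and without Lpr replicate 3 (2.30, adjusted p = 0.0362), and Birc3 without Lpr replicate 4 (1.16, adjusted p = 0.0485). Faim2 was too low to test between DNase and Lpr, and Birc2, Xiap, Faim and Ptpn13 were not called against Ctr. The relatives of the death effector domain genes, Dedd and Dedd2, were not called either.

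In the mitochondrial branch the genes moved in different directions. Bak1, which permeabilizes the outer mitochondrial membrane, rose from 22.6 CPM in Ctr to 47.4 CPM in Lpr (log2 fold change 1.08, adjusted p = 0.0219, edgeR) and 36.7 CPM in DNase (0.70, adjusted p = 0.00382), though another gene on the opposite strand overlaps 25.5% of its exon bases. Its Lpr call was lost without any 1 of the Ctr kidneys and without Lpr replicate 1 or 2 (adjusted p of 0.0535 to 0.111). Apaf1, the scaffold of the apoptosome, rose in DNase (0.68, adjusted p = 0.0255) and had a value of 0.82 in Lpr (adjusted p = 0.0700). Without Lpr replicate 3 Apaf1 was called in Lpr (0.93, adjusted p = 0.0166), and its DNase call was lost without Ctr replicate 1 or 2 or DNase replicate 2 or 4 (adjusted p of 0.0592 to 0.0688). Bid, which caspase-8 cuts to reach the mitochondria, fell in DNase from 76.2 to 60.5 CPM (log2 fold change -0.33, adjusted p = 0.0261), with 17.7% of its exon bases shared with a gene on the opposite strand, and this call was lost without Ctr replicate 2 or 3 or DNase replicate 1 or 3 (adjusted p of 0.0556 to 0.0909). Casp9, the caspase of the apoptosome, fell in DNase from 36.8 to 24.7 CPM (-0.57, adjusted p = 0.00127) and had a value of -0.71 in Lpr (adjusted p = 0.154). It was called lower in Lpr without Lpr replicate 3 (-0.51, adjusted p = 0.0213), with voom sample weights (-0.58, adjusted p = 0.0130), with the gene-length offset (-0.79, adjusted p = 0.0415) and with all 3 groups in 1 fit. Bax, Cycs and Diablo were not called.

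Casp6, a caspase that acts after the initiators, was not called and had 27.7, 27.6 and 26.7 CPM in Ctr, Lpr and DNase. The summed proximal tubule markers, 9334 to 10971 CPM in Ctr, were 4554 to 9870 CPM in Lpr and 6298 to 9786 CPM in DNase. The lowest value was that of Lpr replicate 3, the library whose counts fell with gene length. The other Lpr kidneys had 7277 CPM or more. The part of cell content in the values of these pathway genes was not tested.

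**Figure D4:**
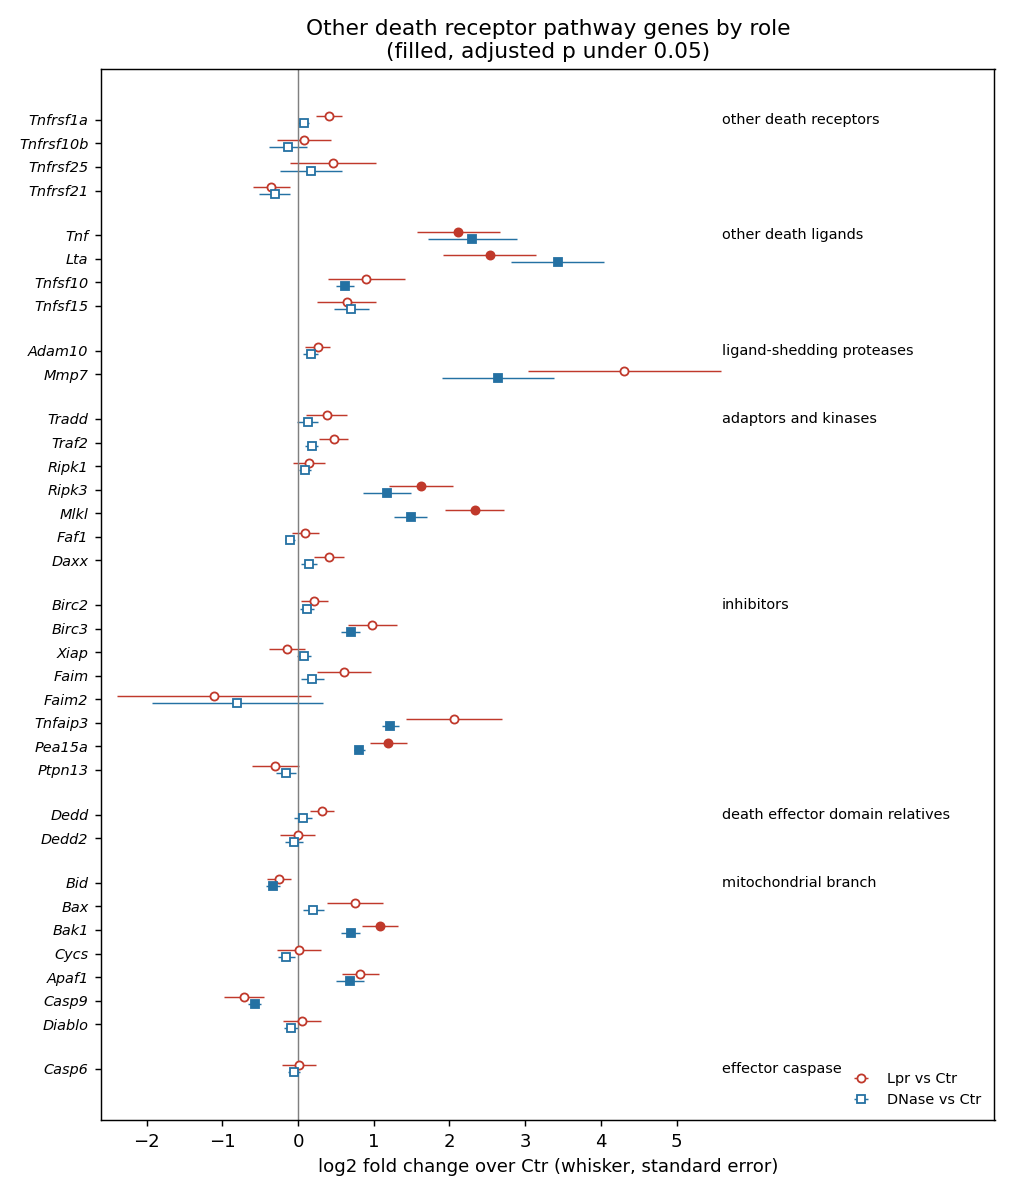
Log2 fold change over Ctr of the 35 other pathway genes, grouped by role, for Lpr (circles) and DNase (squares) from edgeR, with standard errors as whiskers and filled symbols at an adjusted p under 0.05. Filled circles mark 6 genes, all to the right of 0, and filled squares mark 13, with Bid and Casp9 to the left.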

How the data were processed

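RNA-seq libraries of mouse kidney were read as gene counts and FPKM. The authors deposited raw read counts per gene, whole numbers that were not normalized. The study names paired-end sequencing and HTSeq, and the submitters' processing notes list fastp, HTSeq, DESeq2, R 3.2.0 and build mm10. The FPKM values were deposited by the authors from the same counts. The aligner, the annotation and the strand setting are not given in the sources used here. All 11 libraries had a column each, and 0 columns were unused. Groups came from the sample labels, which give no batch.

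Pairs of groups were compared with edgeR 4.0.16 (quasi-likelihood, filterByExpr, TMM, only the libraries of the pair in each fit; R 4.3.3) at a Benjamini-Hochberg adjusted p under 0.05 over all genes tested. The study's additional threshold of an absolute log2 fold change above 2 was an alternative. Log2 CPM used a prior count of 2. Ratios were compared by two-sided exact permutation tests. limma 3.58.1 and DESeq2 1.42.0 served as alternatives, besides other filters and normalizations, a gene-length offset, the replicate number as a block and each library left out. The procedure was tested on simulated data. Intervals cover counting error and the spread between mice only as far as 3 or 4 mice show it. Figures used matplotlib.

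The members, lists and tests were chosen with earlier results of these data known. All members were named with every library, every other pathway gene but 2 was accounted for, and those called against Ctr were named with values, up to 3 per role by smallest p, with all other receptors. Likeness was ranked by the root mean square difference of centred log2 CPM. Motif letters were searched in RefSeq windows from 250 bases before to 50 after each start. Protein sequences were not used here. Results of those 2 genes are not reported here.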

Additional observations from a re-analysis of the deposited data

Results flagged for a closer look

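For 84 combinations of a gene of the pathway, the Cflar to Casp8 ratio or Fasl minus markers and a group of 4 libraries, the distance of the most extreme library from its nearest neighbour was compared with the range of the group (Dixon's criterion). In 9 of them 1 library stood outside its group, where chance alone gives about 5%, and 7 of the 9 involved Lpr replicate 3. One was a member of the Fas complex: Casp8 had 25.9 CPM in DNase replicate 1, below the other 3 DNase libraries at 32.8 CPM or more. In Lpr replicate 3, Bax had 105.0 CPM, Faf1 83.2 CPM, Diablo 73.8 CPM, Casp6 39.1 CPM and Faim 19.9 CPM, each above the other 3 Lpr libraries. In the same library Ptpn13 had 46.8 CPM and Xiap 44.4 CPM, each below the others. Tnfaip3 had 73.4 CPM in Lpr replicate 2, against 18.0 CPM or less in the other Lpr libraries.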

How the results depend on the processing

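Between Lpr and Ctr, the number of members called was 1, and it was 0 with limma on log2(FPKM + 1), 2 with voom sample weights and 0 to 3 with each library left out. The number of pathway genes called was 6. It was 3 with the fold threshold, 10 with DESeq2 and 11 with all 3 groups in 1 fit. It was 10 with voom sample weights, 2 with the replicate block and 1 to 9 with each library left out. Calls over all genes moved as well, from 1639 of 16074 to 929 with the fold threshold. They were 2515 of 24832 with DESeq2 and 2555 of 16500 with all 3 groups in 1 fit. With voom sample weights they were 3009, with the replicate block 1268 and with limma on log2(FPKM + 1) 1415. With each library left out they were 852 to 2824. Between DNase and Ctr, 1 member was called, and 2 with limma on log2(FPKM + 1), with limma on log2(FPKM + 0.1) and with voom sample weights, and 1 to 2 with each library left out. The 13 pathway genes called became 3 with the fold threshold and 4 with all 3 groups in 1 fit. They became 7 with the replicate block and 9 to 12 with each library left out. Over all genes, the 3493 of 16100 called became 967 with the fold threshold. They became 1889 of 16500 with all 3 groups in 1 fit and 1869 with the replicate block. Leaving out each library gave 2690 to 3425, and voom sample weights gave 3900. With limma they were 3610 on log2(FPKM + 1) and 3699 on log2(FPKM + 0.1). The causes were not tested.

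Values near 0 changed sign. Fas between Lpr and Ctr was 0.072 with the replicate block, 0.0096 with limma on log2(FPKM + 1) and 0.013 on log2(FPKM + 0.1), and -0.13 to 0.078 with each library left out. Between DNase and Lpr, Cflar was -0.056 with voom sample weights, -0.078 with the gene-length offset and -0.13 to 0.11 with each library left out, Casp8 was -0.14 to 0.013, Fadd -0.019 to 0.25 and Fasl -1.18 to 0.11 with each library left out. The log2 ratio of Cflar to Casp8 was -0.043 after the gene-length correction, and Fasl minus markers was -0.51 to 0.068 with each library left out. Deviations of same-numbered libraries had correlations of -0.277 to 0.158. A pairing of mice by replicate number was not shown, though so few libraries cannot exclude one. Depth limits Fasl in Ctr, with 6 counts in all.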
